A study of Mus musculus with 96 samples.

Results

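The regions described here are the GATA6 binding regions that carried no histone signature in mouse embryonic stem (ES) cells but were already accessible before GATA6 was induced. They were chosen from the deposited table of 42403 GATA6 binding regions by its own class columns: the chromatin state "naive" in ES cells, together with a starting accessibility of "accessible" or "moderate". The rule found 185 regions, 2.42% of the 7631 naive regions, of which 9 were accessible and 176 moderate. They are called open naive regions and are set beside the 7446 closed naive regions, the 3494 open regions with a primed enhancer signature, the 4597 open regions with an active enhancer signature, and all 42403 regions. Their median width was 592 bases, against 594 for closed naive, 649.5 for open primed enhancer, 712 for open active enhancer and 524 for all regions.

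The series holds 96 chromatin immunoprecipitation sequencing (ChIP-seq) libraries in 47 conditions, of which the labels tie 92 libraries to the 45 columns used. All ES cells were of the line KH2 (strain C57BL/6 x 129/Sv), carried a gata6 expression cassette that doxycycline (Dox) switches on, and were grown with LIF on inactivated mouse fibroblast feeders that were removed by adsorption before fixation. They were profiled for GATA6, SOX17, OCT4, SOX2, ESRRB and input untreated (day 0) and after 8, 16, 24, 48 and 96 h with 1 µg/mL Dox, the last 3 times being called days 1, 2 and 4; GATA6 and SOX17 were also profiled after 48 h of Dox with a control siRNA (siCTL) or with an siRNA against Oct4 (siOCT4). The untreated line X10 (strain CD1) of extraembryonic endoderm (XEN) cells served as the endoderm reference, with no ESRRB column among the values used. The cassette drives GATA6 from outside its own locus in 2 ES cell clones, and the knock-down was made in only 1 of them. Feeder cells left in a sample were not measured.

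Values are reads in the region per 1e6 reads of the library (RPM), 1 per region and condition, with replicates pooled by the authors. The depths that could be read from the steps of the values, 76 in all, ran from 5.42 to 69.4 times 1e6 reads, with a median of 15.3. In 5 columns the steps showed fewer libraries than the labels give, and in another 5, all of day 0, no step could be resolved, so how many libraries stand behind those columns is uncertain. The replicate spread is thus unknown and no comparison below carries a test. An error written after ± is the counting error alone, for a single region at the stated value. Where the value is a median over regions, it is not the error of that median. A change is counted as a rise or a fall when it passed 2-fold on the log2(RPM + pseudocount) scale, and the share of all regions that did the same is given beside the first count. The values are averages over a population of cells, so fewer cells with a bound factor and less factor bound per cell cannot be told apart.

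GATA6 is a zinc-finger transcription factor that binds GATA sequences, also in closed chromatin, and drives ES cells towards primitive endoderm. SOX17, an HMG-box factor that acts downstream of GATA6 in this lineage, can bind the same regulatory regions. OCT4 and SOX2 bind together at a composite element and, with the nuclear receptor ESRRB, belong to the pluripotency transcription factors (PTFs) that maintain the ES cell state and are given up during differentiation. Open chromatin with no histone mark of enhancers or promoters is less often studied, and transposable elements are known to hold many pluripotency factor sites in mouse ES cells.

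A large share of the open naive regions carried related DNA. The following stretches come from the mouse genome build mm10 (GRCm38, sequence from RefSeq). They are printed 5′ to 3′ in lower case, and the capitals mark the best motif of the named factor in the deposited table with 40 bases on either side. The first set shows the best GATA6 motif in 5 of the 6 regions of one group of related windows, which lie on 5 chromosomes (the sixth is not printed):
chr2:146911438-146911530, plus strand: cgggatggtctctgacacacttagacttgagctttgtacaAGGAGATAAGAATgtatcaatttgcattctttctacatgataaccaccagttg
chr3:123366889-123366981, plus strand: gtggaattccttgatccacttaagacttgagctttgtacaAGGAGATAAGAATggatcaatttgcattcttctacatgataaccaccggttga
chr11:49392928-49393020, minus strand: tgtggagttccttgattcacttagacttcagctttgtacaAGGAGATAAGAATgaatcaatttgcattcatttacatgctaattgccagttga
chr6:75971165-75971257, minus strand: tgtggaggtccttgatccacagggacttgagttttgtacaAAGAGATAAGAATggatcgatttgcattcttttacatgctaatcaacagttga
chr4:52627851-52627943, plus strand: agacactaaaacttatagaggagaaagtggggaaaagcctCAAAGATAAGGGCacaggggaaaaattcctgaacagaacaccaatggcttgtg

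The capital letters AGGAGATAAGAAT stood in 3 of these 5 stretches and in the summit windows of 4 of the 6 regions of the group, but in 50 of all 42403 windows (0.118%). An octamer of OCT4, ATTTGCAT on either strand, followed within the flank in 4 of the 5 stretches and stood in the summit windows of all 6 regions. The next set shows the best OCT:SOX motif, the composite element of OCT4 and SOX2, in all 4 regions of another related group:
chr7:18747573-18747667, minus strand: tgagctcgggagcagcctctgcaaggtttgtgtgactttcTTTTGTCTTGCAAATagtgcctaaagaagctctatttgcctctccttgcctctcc
chr10:15793311-15793405, plus strand: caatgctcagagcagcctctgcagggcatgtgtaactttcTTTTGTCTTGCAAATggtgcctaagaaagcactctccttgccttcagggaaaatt
chr17:71420409-71420503, plus strand: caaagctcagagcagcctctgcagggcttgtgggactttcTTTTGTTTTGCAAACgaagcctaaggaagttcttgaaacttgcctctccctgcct
chr1:7012643-7012737, plus strand: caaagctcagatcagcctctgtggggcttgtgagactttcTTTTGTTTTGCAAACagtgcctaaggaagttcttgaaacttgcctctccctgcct

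These 4 regions carried 2 forms of the element, TTTTGTCTTGCAAAT in 2 regions and TTTTGTTTTGCAAAC in the other two, found in 4 and 8 of all 42403 windows. The next set comes from the largest related group and shows 3 regions whose best GATA6 motif has the same letters, AATAGATAACCTT, followed by a region of the group whose best motif has other letters and whose course, given below, went the other way:
chr5:14370979-14371071, minus strand: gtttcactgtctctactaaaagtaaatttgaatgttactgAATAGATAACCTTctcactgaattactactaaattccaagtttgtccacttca
chr7:57958886-57958978, minus strand: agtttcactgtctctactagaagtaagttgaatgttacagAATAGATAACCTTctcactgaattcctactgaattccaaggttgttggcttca
chrX:153668290-153668382, minus strand: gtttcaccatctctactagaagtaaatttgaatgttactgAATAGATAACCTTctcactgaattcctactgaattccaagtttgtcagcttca
chr10:74527514-74527606, plus strand: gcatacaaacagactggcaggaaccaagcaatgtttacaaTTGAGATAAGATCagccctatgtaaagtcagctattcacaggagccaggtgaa

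The last set holds the regions that lead the values below and belongs to no related group. It shows in order the OCT:SOX and the GATA6 motif of the region with the highest GATA6 at 8 h, the GATA6 motif of the region highest in GATA6 at day 4, the SOX17 motif of the region highest in SOX17 at day 4, the OCT:SOX motif of the region with the largest OCT4 rise, the GATA6 motif of the region with the largest late GATA6 rise, and the OCT:SOX motif of a region where GATA6 was lower with the Oct4 siRNA:
chr10:89487436-89487530, plus strand: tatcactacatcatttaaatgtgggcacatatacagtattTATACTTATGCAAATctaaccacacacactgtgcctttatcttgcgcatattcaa
chr10:89487296-89487388, plus strand: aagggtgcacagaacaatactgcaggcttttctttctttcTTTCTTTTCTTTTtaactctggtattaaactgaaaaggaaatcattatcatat
chrX:68739260-68739352, plus strand: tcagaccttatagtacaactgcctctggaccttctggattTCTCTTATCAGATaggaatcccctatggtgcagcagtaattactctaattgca
chr3:79753423-79753511, plus strand: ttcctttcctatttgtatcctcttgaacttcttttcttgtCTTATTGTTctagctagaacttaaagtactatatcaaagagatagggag
chr10:128012197-128012291, plus strand: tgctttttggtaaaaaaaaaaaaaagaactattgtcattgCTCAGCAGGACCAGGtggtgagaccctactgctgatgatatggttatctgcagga
chr8:43280726-43280818, plus strand: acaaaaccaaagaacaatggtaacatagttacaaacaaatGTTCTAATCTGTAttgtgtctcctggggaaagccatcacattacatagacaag
chr10:14834096-14834190, plus strand: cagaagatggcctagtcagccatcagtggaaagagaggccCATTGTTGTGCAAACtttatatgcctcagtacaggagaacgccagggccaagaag

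Repeated sequence, which the rule had not used, was frequent. Within 300 bases centred on the GATA6 summit, more than 50% of the bases were soft-masked as repeats or low complexity in 89 of the 185 open naive regions (48.1%). The same held for 14.1% of closed naive, 20.1% of open primed enhancer, 9.5% of open active enhancer and 9.9% of all regions. When the summit windows were aligned with one another, 73 of the 185 (39.5%) shared at least 150 aligned bases with the window of another open naive region, and 72 of these 73 were more than 50% masked. Of closed naive windows 6.9% were related to an open naive window in this way, of open primed enhancer windows 13.9%, of open active enhancer windows 4.5% and of all windows 4.8%. Windows were aligned only with open naive windows, so the other groups were not compared within themselves. These shares therefore do not show whether related windows are more frequent in the open naive set than within other groups. The masked share was above that of all regions on 19 of the 20 chromosomes that held members. Names of repeat families are not given here because no repeat annotation was used.

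The 73 related windows formed 10 groups, of 28, 9, 8, 7, 6, 5 and 4 regions and 3 groups of 2. The median identity of the aligned pairs was 81.6% over a median of 226 bases, and the highest was 96.6%. Group 1, with 28 regions on 12 chromosomes, held 27 regions bound by PTFs at day 0, 21 transient regions and 7 of the 9 accessible members. Group 5, the source of the AGGAGATAAGAAT stretches, had a GATA6 motif of the high class in all 6 regions. Group 7, the source of the OCT:SOX stretches, held high-class motifs for GATA6 and for OCT:SOX in all 4 regions, and all 4 were transient and bound by PTFs at day 0. Group 6, with 5 regions, had the highest median ESRRB of the 10 groups at day 0, at 4.50 RPM against 0.78 RPM in all open naive regions.

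**Figure D1:**
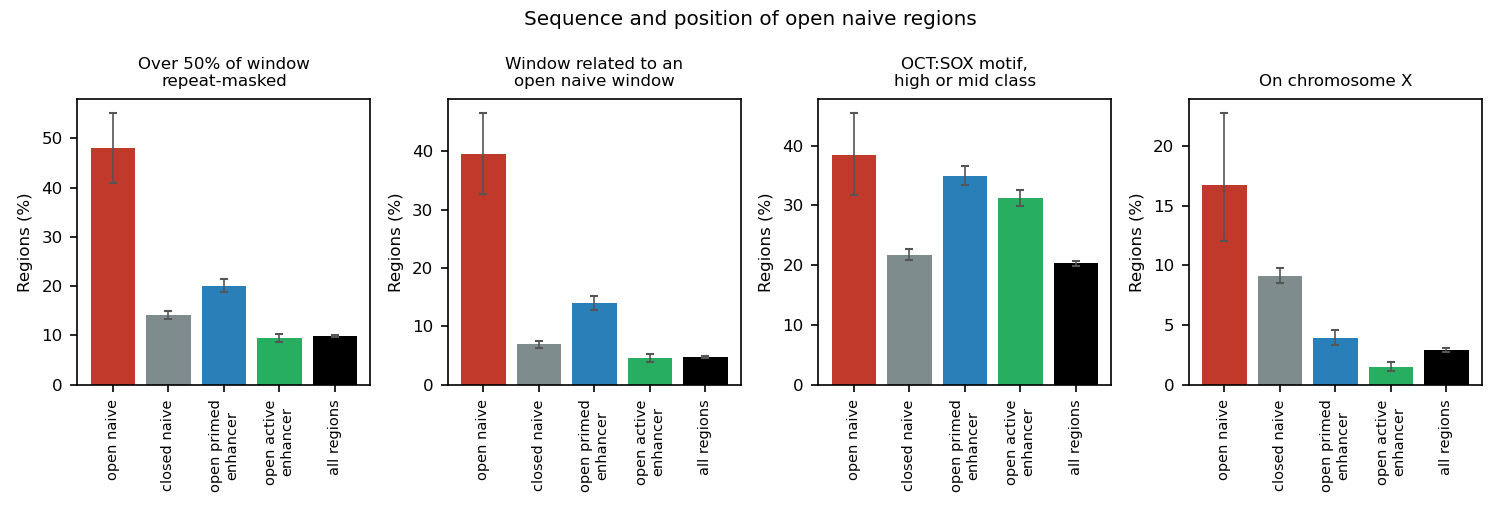
Share of regions (bars, %, with 95% Wilson intervals for counting error only) in open naive, closed naive, open primed enhancer, open active enhancer and all regions that had over 50% of the summit window repeat-masked, a window related to an open naive window, an OCT:SOX motif of high or mid class, or a place on chromosome X. The open naive bar stands highest in each of the 4 panels, at 48.1%, 39.5%, 38.4% and 16.8%. For related windows only the open naive regions were compared with their own group.

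In position the open naive regions were mostly intergenic. The GATA6 summit was intergenic in 132 regions (71.4%, against 49.0% of all regions), intronic in 51, in a UTR in 2 and in a coding exon in 0. The nearest transcription start lay at a median distance of 51.8 kb, against 31.1 kb for all regions and 55.1 kb for closed naive regions. The median was 177 kb in the 73 related regions and 29.2 kb in the other 112, so the distance beyond that of all regions rested on the related copies. A start lay within 1 kb in 3 regions (1.6% against 5.4%). Chromosome X held 31 of the 185 regions (16.8%), against 2.9% of all regions, 9.1% of closed naive, 3.9% of open primed enhancer and 1.5% of open active enhancer regions. The next chromosomes were 10 with 17 regions and 7 with 15. GATA6 fell from 8 h to day 4 in 22 of the 31 regions on chromosome X and in 99 of the 154 on other chromosomes. The GC content of the summit windows averaged 42.2%, against 45.9% in all regions and 41.2% in closed naive regions.

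OCT:SOX and SOX17 motifs were more frequent than over all regions, whereas the shares with GATA6 and ESRRB motifs lay near those of all regions. In the deposited motif classes, 71 of the 185 regions (38.4%) held an OCT:SOX motif of the high or mid class, against 20.3% of all regions, 21.7% of closed naive and 35.0% of open primed enhancer regions. A SOX17 motif of these classes stood in 109 (58.9%, all regions 42.6%), an ESRRB motif in 49 (26.5%, all regions 22.5%). For GATA6 the share was also 58.9%, close to the 59.8% of all regions and below the 73.5% of closed naive regions. Plain letters were also counted in the summit windows, on either strand and with overlaps allowed. AGATAA stood in 54.6% of open naive windows against 58.1% of all windows, ATTGT in 70.8% against 55.3%, ATTTGCAT in 9.2% against 3.7% and TCAAGGTCA in 1.1% against 1.6%. Such matches describe the sequence and do not mark bound sites.

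GATA6 was higher at most of these regions after 8 h of Dox and lower again at most of them by day 4. All regions were listed because the authors found GATA6 binding there at some time or in XEN cells. A GATA6 rise at some point was thus partly a condition of listing, for the open naive regions and for all regions alike. The median GATA6 value was 0.49 ± 0.28 RPM before Dox, in the 1 library of that condition. This is 3 reads if the smallest value of that library is 1 read. The median was 2.42 ± 0.25 RPM at 8 h, 1.28 at 16 h, 1.08 on day 1, 0.99 on day 2 and 0.77 ± 0.16 on day 4. In XEN cells it was 0.465 RPM. Input stayed between 0.261 and 0.456 RPM over the same samples. The median at 8 h was 4.93 times that of day 0, a ratio whose denominator is only a few reads of 1 library. The median at day 4 was 0.318 times that of 8 h. Over all regions the medians ran 0.49, 1.49, 1.45, 1.29, 1.13, 1.29 and 1.34 RPM, and over closed naive regions they were 0.33 at day 0, 1.04 at 8 h, 1.64 at day 4 and 1.83 in XEN cells. The closed regions of the same histone class were thus lower than the open ones at 8 h and higher at day 4 and in XEN cells. At day 0 both medians were a few reads of 1 library, so a lower start cannot be read from them.

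Counted region by region, GATA6 rose from day 0 to 8 h in 156 of the 185 regions (84.3%), where 60.4% of all regions did, with a median change of 2.15 on the log2 scale. The median change of all regions was itself 1.38, and 38.4% of the open naive regions rose by more than 2-fold beyond it, against 22.4% of all regions. Loss began early. From 8 h to day 1 GATA6 fell in 95 regions (51.4%, all regions 20.4%), and from 8 h to day 4 it fell in 121 (65.4%, all regions 34.8%) and rose in 31 (16.8%, all regions 30.9%), with a median change of -1.70. From day 4 to XEN cells, which are of another strain, it was lower in 39 (all regions 11.7%) and higher in 6 (all regions 14.4%). From 8 h to day 4 GATA6 fell in 64.3% of open primed enhancer and 58.8% of open active enhancer regions, close to the open naive share, but in only 25.1% of closed naive regions, of which 47.0% rose. The course thus resembled that of open regions with enhancer marks more than that of unmarked closed regions.

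**Figure D2:**
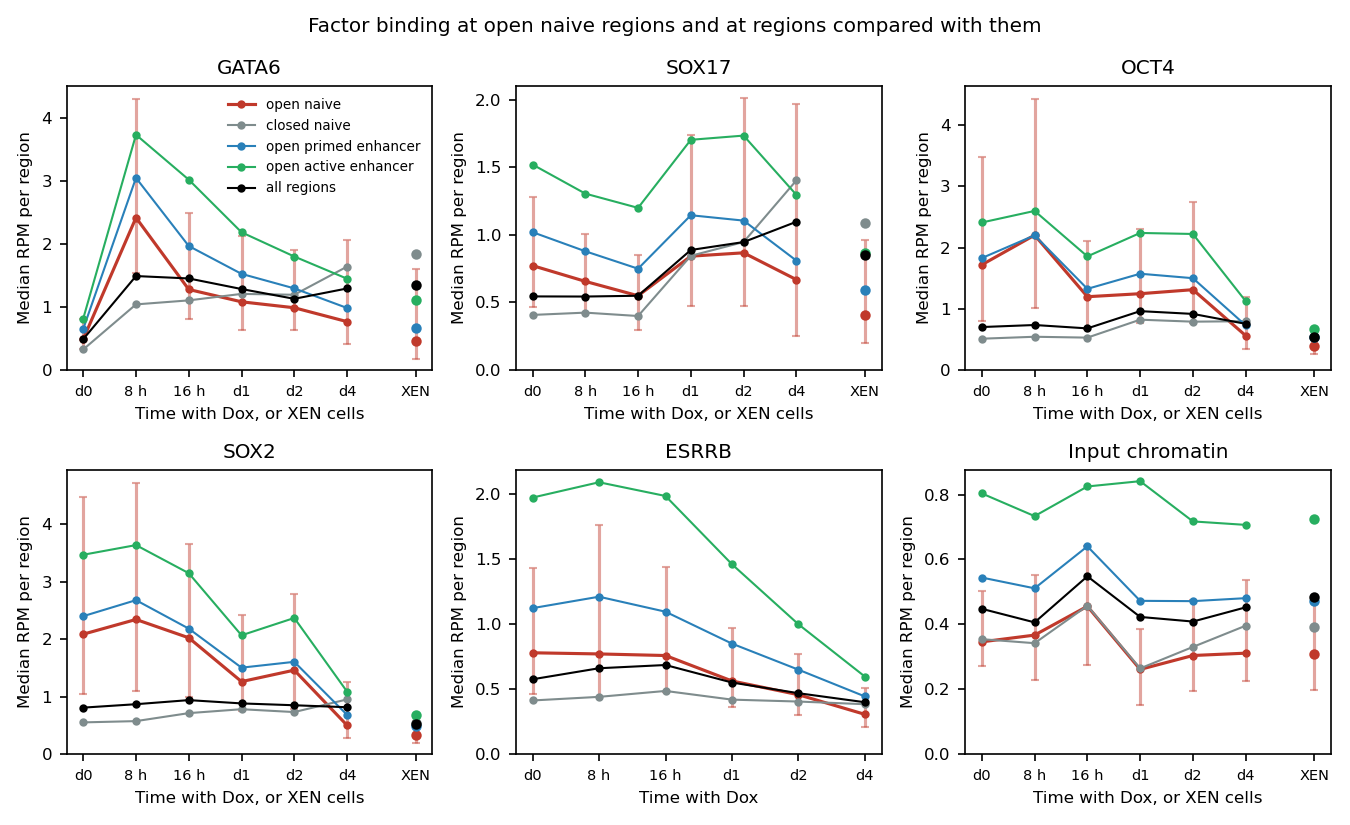
Median RPM per region of each factor and of input against time with Dox and in XEN cells (points and lines, linear axes from 0; bars give the quartiles of open naive regions), for open naive, closed naive, open primed enhancer, open active enhancer and all regions. For GATA6 the open naive line peaks at 8 h at 2.42 RPM and ends in XEN cells at 0.465 RPM, while the closed naive line ends at 1.83 RPM.

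The authors' GATA6 classes, which were built from these same GATA6 values, put 93 of the 185 regions (50.3%) in the transient class, 64 (34.6%) in the early class, and 28 (15.1%) in the late class. Over all regions the shares were 38.4%, 28.0% and 33.6%, and among closed naive regions 19.0% were transient. The class is therefore no separate evidence of the course above. Even in the early class GATA6 fell from 8 h to day 4 in 29 of 64 regions and rose in 13.

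The course of GATA6 differed with the binding of PTFs before induction, which comes from separate immunoprecipitations. PTF peaks were present at day 0 in 118 of the 185 regions (63.8%), against 20.8% of all regions and 8.7% of closed naive regions, appeared only during induction in 11 (ectopic PTF binding) and were absent in 56. High PTF signal at day 0 was not particular to open naive regions, whose OCT4 and SOX2 medians were 1.72 and 2.08 RPM. They were 1.83 and 2.40 RPM in open primed enhancer and 2.41 and 3.46 RPM in open active enhancer regions. In the 118 regions the median GATA6 value went from 3.17 RPM at 8 h to 0.63 RPM at day 4, and GATA6 fell in 98 and rose in 5. In the 56 regions with no PTF peak it went from 1.24 to 1.38 RPM, with 19 falls and 21 rises, and in the 11 ectopic regions from 1.94 to 3.77 RPM, with 4 falls and 5 rises. By motif class the shares lay close together for GATA6 and apart for OCT:SOX. GATA6 fell in 69 of the 109 regions with a high or mid GATA6 motif and in 52 of the 76 with a low one or none. It fell in 60 of the 71 regions with a high or mid OCT:SOX motif and rose in 1, with medians of 3.80 RPM at 8 h and 0.63 RPM at day 4, whereas it fell in 61 and rose in 30 of the other 114, with medians of 1.89 and 0.84 RPM. Of the 71 regions, 64 (90.1%) carried PTF peaks at day 0.

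**Figure D3:**
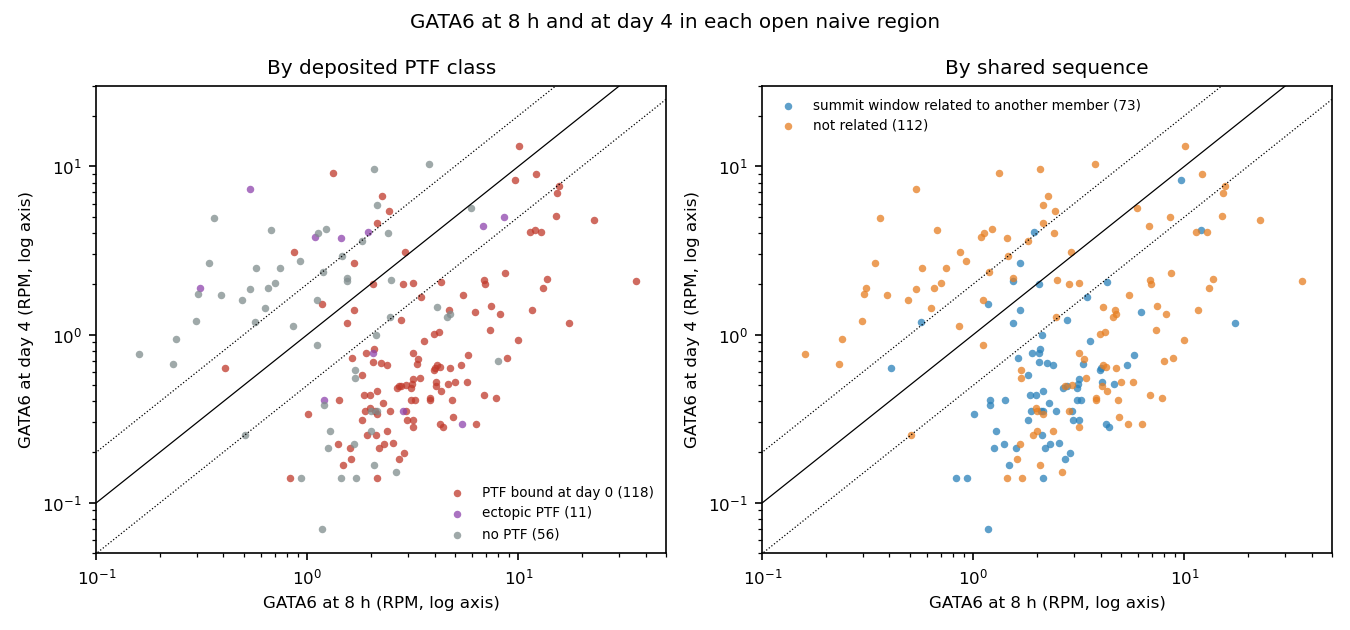
GATA6 at day 4 against GATA6 at 8 h (RPM, log axes), 1 point per open naive region, coloured by the deposited PTF class (left) and by whether the summit window is related to that of another member (right). The solid line marks equal values and the dotted lines a ratio of 2 either way. Regions with PTF peaks at day 0 lie mostly below the diagonal, with medians of 3.17 RPM at 8 h and 0.63 RPM at day 4.

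Across the 185 regions the GATA6 value at 8 h ranked with OCT4 at day 0 (Spearman's rho 0.80) and SOX2 at day 0 (0.78), and much less with the score of the best GATA6 motif (0.23 over the 167 regions that had one). Over all 42403 regions the values were 0.88, 0.87 and 0.22. GATA6 at 8 h also ranked with region width (0.75, all regions 0.69) and with input (0.50, all regions 0.67). A wider region collects more reads of every kind, and how much of these correlations comes from width was not tested. GATA6 at 8 h and at day 4 were almost unrelated (0.10, all regions 0.18), while GATA6 and SOX17 at day 4 ranked closely (0.91, all regions 0.93). Regions are not independent replicates, and the correlations are descriptions.

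The related copies took the transient course more often than the rest. Among the 73 related regions GATA6 fell from 8 h to day 4 in 59 and rose in 1, and among the 112 other regions it fell in 62 and rose in 30. PTF peaks at day 0 were present in 61 of the 73 (83.6%) and in 57 of the 112 (50.9%), and 52 against 41 were transient. The median GATA6 value at day 4 was 0.48 RPM in the related and 1.45 RPM in the other regions. Input at 8 h was also lower in the related regions, 0.28 RPM against 0.41 RPM, and the authors kept only reads with a mapping quality above a minimum, which can remove reads from repeated sequence. Its part in these values was not tested. At 8 h the GATA6 medians were 2.14 RPM in the related and 2.78 RPM in the other regions. Related windows outside the open naive set differed with their chromatin. Those in open primed enhancer regions carried PTF peaks at day 0 in 76.8% and lost GATA6 in 85.4%, whereas those in closed naive regions did so in 20.5% and 50.3%. Of all open primed enhancer regions 64.3% lost GATA6, and of all closed naive regions 25.1%, so the related windows lost it more often in both groups.

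Single regions show the range of these courses. The highest GATA6 value at 8 h was at chr10:89486399-89488225, in an intron of Nr1h4, which encodes the bile acid receptor FXR. There GATA6 was 1.31 RPM before Dox, 35.9 ± 0.96 at 8 h, 13.9 at 16 h and 12.5, 5.29 and 2.07 ± 0.27 on days 1, 2 and 4, with 1.47 RPM in XEN cells. OCT4 was 21.9 RPM at day 0, 32.7 at 8 h, 9.13 at day 2 and 1.86 at day 4, and SOX2 was 18.3 RPM at day 0 and 1.20 at day 4. It had the highest sum of OCT4 and SOX2 at day 0, the largest fall of GATA6 after 8 h, and a high-class OCT:SOX motif 8 bases from the GATA6 summit, while its best GATA6 motif was of the low class.

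The second region at 8 h, chr5:9142128-9144134 in an intron of Dmtf1, went from 22.9 RPM to 4.77 RPM at day 4. The third, chr2:146910886-146911894 in an intron of Kiz, belongs to related group 5 and went from 17.4 RPM to 1.17 RPM, while the other 5 regions of that group stood between 1.25 and 2.14 RPM at 8 h. GATA6 fell past 2-fold in 5 of the 6 regions of the group. The fourth, chr18:43736767-43738397, lies next to the start of Spink1, a secreted trypsin inhibitor. It held 15.5 RPM at 8 h, 7.60 at day 4 and 20.6 in XEN cells. It is 1 of the 6 regions higher past 2-fold in XEN cells than at day 4.

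Close behind in OCT4 and SOX2 at day 0 were 3 further regions. At chr14:83007988-83009897, which is intergenic, OCT4 went from 13 RPM at day 0 to 3.70 at day 4 and GATA6 from 15.0 RPM at 8 h to 5.06 at day 4. At chrX:7869668-7870669, in an intron of the deubiquitinase gene Otud5, OCT4 went from 13.9 to 1.84 RPM and GATA6 from 13.7 to 2.15 RPM. At chr10:64744218-64744644, an accessible member of related group 1 in an intron of Ctnna3, SOX2 went from 10.2 to 0.43 RPM and GATA6 from 3.14 to 0.51 RPM. High OCT4 and SOX2 at day 0 thus came with GATA6 values at 8 h from 3.14 to 35.9 RPM. The largest falls of GATA6 also included chrX:68512251-68512883, which had no GATA6 motif in the deposited table and went from 6.26 to 0.30 RPM, and chr1:68304274-68305272 in an intron of Erbb4, a receptor tyrosine kinase gene, which went from 7.79 to 0.42 RPM.

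**Figure D4:**
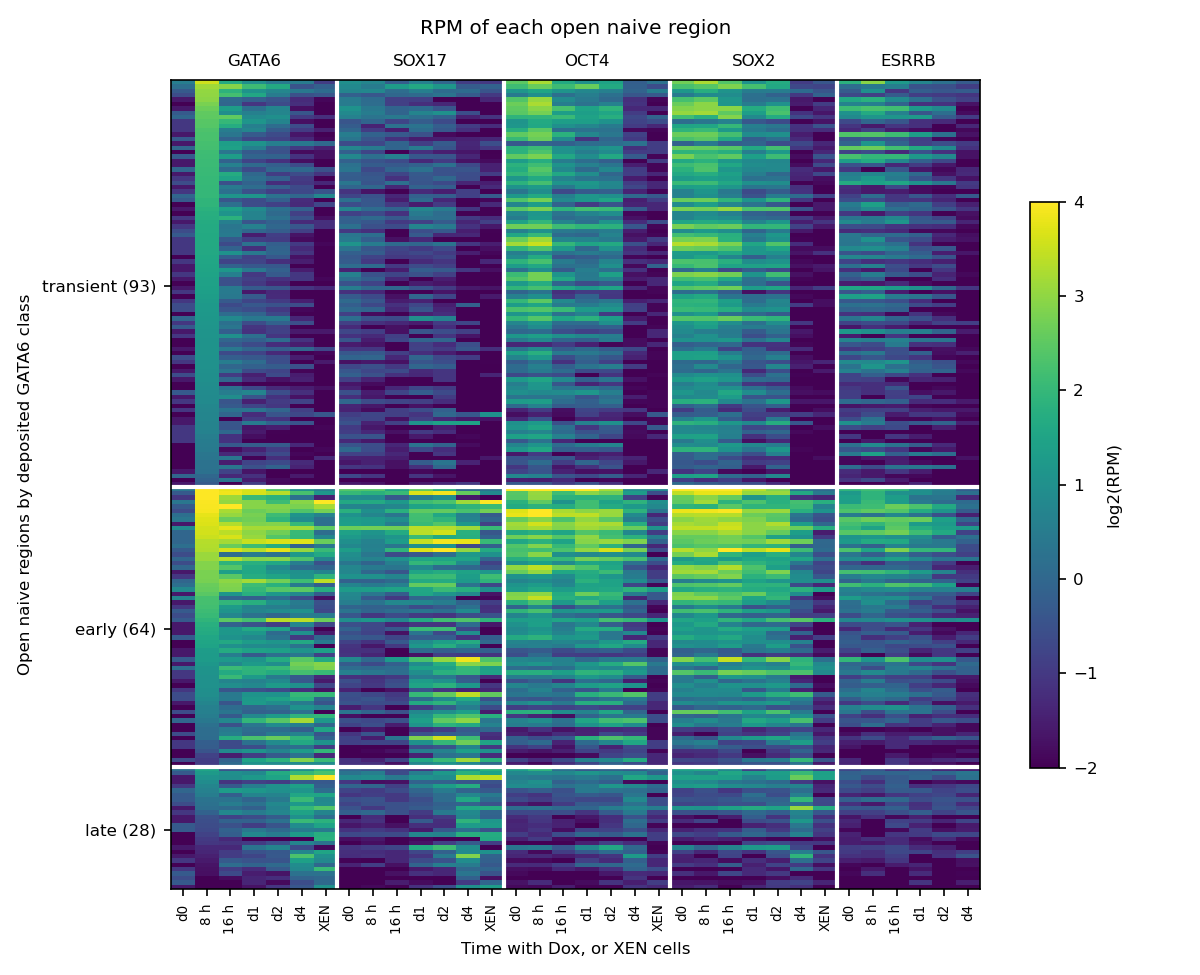
Heat map of the RPM values (log2 colour scale) of GATA6, SOX17, OCT4, SOX2 and ESRRB in every open naive region, 1 line per region grouped by deposited GATA6 class and ordered by GATA6 at 8 h, 1 column per condition. In the 93 transient regions the median GATA6 value was 2.71 RPM at 8 h and 0.41 RPM at day 4, and in the 28 late regions it was 0.64 and 2.0 RPM.

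A minority of the regions kept or gained GATA6 together with SOX17. The highest GATA6 value at day 4 was at chrX:68739049-68740822, 21.6 kb from the start of Fmr1nb. Its GATA6 values were 0.98 RPM before Dox, 10.1 at 8 h, 9.18 at 16 h and 11.3, 12.6 and 13.2 on days 1, 2 and 4, with 6.22 RPM in XEN cells. SOX17 went from 1.99 RPM at day 0 to 14.0 at day 4, and OCT4 from 2.93 at day 0 to 8.46 at day 2 and 7.16 at day 4. Here OCT4 rose while it fell in most open naive regions. Next in order were chr7:127999534-128001960, 4.0 kb from the start of the membrane repair gene Trim72, with 3.77 RPM at 8 h and 10.3 at day 4, and chr19:45762820-45764164 in a UTR of Mgea5, with 2.08 RPM at 8 h, 9.65 at day 4 and 16.5 in XEN cells. At chrX:103259425-103260294, whose nearest start is that of the homeobox gene Cdx4, the values were 1.33 and 9.10 RPM, with 2.26 RPM in XEN cells.

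The largest rise of GATA6 from 8 h to day 4 was at chr8:43280611-43281243, 26.1 kb from the start of Zfp42, which encodes the pluripotency marker REX1. GATA6 was 0.65 RPM before Dox, 0.54 at 8 h, 0.93 at 16 h, 2.81, 3.64 and 7.28 on days 1, 2 and 4, and 4.22 RPM in XEN cells, a log2 change of 3.36 from 8 h to day 4. SOX17 rose from 0.46 RPM at day 0 to 8.88 at day 4 and OCT4 from 0.59 to 3.22 RPM. All 3 factors were low at day 0, where input was 0.382 RPM, and high at day 4, where input was 0.622 RPM. Late gains also stood at chr11:106772339-106772888 in an intron of Polg2, a subunit of the mitochondrial DNA polymerase, from 0.36 to 4.94 RPM, and at chr7:3588294-3588656, whose nearest start is that of Oscar, from 0.34 to 2.66 RPM.

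The SOX17 signal was higher at day 4 than at day 0 in some open naive regions and lower in others. Sox17 is activated downstream of GATA6, so the day 0 values are antibody signal before its induction, and a lower value at day 4 cannot be read as a loss of bound SOX17. Its median was 0.77 RPM before Dox, 0.66 at 8 h, 0.55 at 16 h, 0.84, 0.87 and 0.67 ± 0.15 on days 1, 2 and 4, and 0.41 RPM in XEN cells, while over all regions it went from 0.54 RPM at day 0 to 1.10 at day 4. From 8 h to day 1 SOX17 rose in 43 of the 185 regions (23.2%, all regions 28.2%). From day 0 to day 4 it rose in 52 (28.1%, all regions 44.5%) and fell in 46 (24.9%, all regions 8.72%), with a median change of -0.14 against 0.79 over all regions. Without the 73 related regions the median change was 0.35 and 36.6% rose, so the sign of the median rested on the related copies. From day 4 to XEN cells SOX17 was lower in 42 regions (all regions 16.9%). Open primed enhancer regions split in the same way, with 25.4% rises and 27.4% falls, whereas 60.8% of closed naive regions rose and 2.2% fell.

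The deposited SOX17 class marked 71 of the 185 regions as bound (38.4%, all regions 44.5%). In these 71 the median GATA6 value was 2.13 RPM at 8 h and 2.09 at day 4, with 26 falls and 25 rises, while in the 114 without SOX17 it was 2.51 RPM at 8 h and 0.46 at day 4, with 95 falls and 6 rises. The most frequent combination of the 3 classes was transient, PTF-bound at day 0 and without SOX17, with 65 regions. The next was early, PTF-bound at day 0 and with SOX17, with 34. The highest SOX17 value at day 4 was at chr3:79753251-79754188, 16.0 kb from the start of the relaxin receptor gene Rxfp1. SOX17 was 1.78 RPM before Dox, 1.02 at 8 h, 2.35 at 16 h, 4.88, 8.20 and 14.5 on days 1, 2 and 4, and 4.97 RPM in XEN cells, and GATA6 reached 5.4 RPM at day 4. SOX17 thus exceeded GATA6 there, although levels of different antibodies cannot be compared directly. At chr10:74527289-74528022, the member of related group 1 printed last in its set and lying in an intron of Pcdh15, SOX17 went from 0.69 to 10.6 RPM and GATA6 from 1.94 RPM at 8 h to 4.08 at day 4.

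Pluripotency factors stood above input at the open naive regions at the start and were lower by day 4. The OCT4 median was 1.72 RPM before Dox, 2.20 at 8 h, 1.20 at 16 h, 1.25, 1.31 and 0.56 on days 1, 2 and 4, and 0.40 RPM in XEN cells. SOX2 stood at 2.08, 2.34, 2.02, 1.26, 1.46, 0.50 and 0.33 RPM in the same order, and ESRRB at 0.78, 0.77, 0.76, 0.56, 0.46 and 0.30 RPM from day 0 to day 4. OCT4 and SOX2 at day 0 lay well above the all-region medians of 0.70 and 0.81 RPM and near those of open primed enhancer regions, 1.83 and 2.40 RPM. Between day 0 and 8 h, while GATA6 rose in 156 regions, the median change was 0.28 for OCT4 and 0.08 for SOX2 on the log2 scale.

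From day 0 to day 2 OCT4 rose in 11 of the 185 regions (5.9%, all regions 14.6%) and fell in 32 (17.3%, all regions 4.86%). By day 4 it had fallen in 104 (56.2%, all regions 19.4%) and risen in 18 (9.7%, all regions 21%), with a median change of -1.39. SOX2 fell from day 0 to day 4 in 123 (66.5%, all regions 24.1%) and rose in 20 (10.8%, all regions 24%), with a median of -1.61. ESRRB fell from day 0 to day 1 in 16 (8.6%, all regions 2.71%) and from day 0 to day 4 in 89 (48.1%, all regions 25.2%), with a median of -0.94. In all 9 accessible members there was a fall of OCT4, SOX2 and ESRRB by day 4. Their medians were 3.79 RPM for OCT4 and 6.25 RPM for SOX2 at day 0, and 0.44 and 0.43 RPM at day 4. Open regions with enhancer marks also lost these factors from day 0 to day 4. In open primed enhancer regions OCT4 fell in 49.9%, SOX2 in 58.8% and ESRRB in 52.2%. In open active enhancer regions the shares were 44.4%, 57.6% and 67.9%, so ESRRB fell there more often than in open naive regions. Closed naive regions moved the other way for 2 factors, with OCT4 rising in 36.0% and SOX2 in 41.3% from day 0 to day 4.

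The largest OCT4 rise from day 0 to day 2 was at chr10:128012114-128012701, 2.86 kb from the start of the primase gene Prim1. OCT4 was 0.91 ± 0.17 RPM before Dox, 0.67 at 8 h, 0.80 at 16 h, 3.62, 5.01 ± 0.33 and 3.96 on days 1, 2 and 4, and 0.27 RPM in XEN cells, a log2 change of 2.27 from day 0 to day 2. GATA6 went from 0.16 RPM at day 0 to 6.06 at day 2 and SOX17 from 0.58 to 11.9 RPM. The deposited class of this region was ectopic PTF binding, and its best OCT:SOX motif was of the low class with the score 5.38. The following 3 rises were those of the Pcdh15, Fmr1nb and Cdx4 regions named above, with log2 changes of 1.6, 1.48 and 1.38.

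With the Oct4 siRNA, GATA6 at day 2 was lower at part of the open naive regions. The median was 1.24 RPM with siCTL and 1.01 RPM with siOCT4, while over all regions it was 1.64 and 1.68 RPM. Past 0.5 on the log2 scale GATA6 was lower in 64 of the 185 (34.6%, all regions 21.2%) and higher in 25 (13.5%, all regions 21.9%). The median difference was -0.28 against 0.00 over all regions. Open regions with enhancer marks leaned the same way. In open primed enhancer regions 29.7% were lower and 13.1% higher, with a median of -0.18. In open active enhancer regions 25.7% were lower and 10.7% higher, with a median of -0.14. The related regions held 37 of the 64. Of these 73, 37 were lower and 3 higher, and of the other 112, 27 were lower (24.1%) and 22 higher, which is near the all-region share. All 4 regions of related group 7, printed above with their OCT:SOX elements, were lower, from 1.28 to 0.68, 1.31 to 0.52, 1.51 to 0.96 and 0.98 to 0.30 RPM. Lower values were found in 51 of the 118 regions with PTF peaks at day 0 and in 11 of the 56 without, and in 45 of the 93 transient regions against 2 of the 28 late ones.

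Among the 69 regions with at least 2 RPM under siCTL, 3 of the 4 largest falls of GATA6 were at intergenic sites. At chr3:136013671-136014088 it was 2.48 ± 0.22 RPM with siCTL and 0.66 ± 0.15 with siOCT4, and at chr10:14833700-14834304, whose window is wholly masked and holds a high-class OCT:SOX motif, it was 3.27 ± 0.25 and 0.99 ± 0.18. At chr3:57276882-57277878 the values were 4.19 and 1.45 RPM, and at the Nr1h4 region 8.63 and 3.36 RPM. The log2 differences were -1.65, -1.55, -1.41 and -1.31. The Fmr1nb region did not follow, with 21.7 ± 0.64 and 22.9 ± 0.88 RPM. The Mgea5 region stood higher with siOCT4, at 11.3 against 3.22 RPM.

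SOX17 was higher at the median with the Oct4 siRNA in each of the 5 groups of regions. The open naive median was 0.72 RPM with siCTL and 0.94 RPM with siOCT4, against 0.81 and 1.29 RPM over all regions. SOX17 was higher in 72 of the 185 regions (38.9%, all regions 51.4%) and lower in 13 (7.0%, all regions 3.95%). The median difference was 0.37, and 0.52 over all regions, so relative to all regions SOX17 was 0.15 lower on the log2 scale at open naive regions. Without the related copies the share with higher SOX17 was 50.9%, near the all-region share. Each siRNA arm is 1 pooled value, and whether a difference of this size lies beyond the spread between replicates cannot be told. Input libraries of both arms are labelled, but no column used holds them. Neither the GATA6 nor the SOX17 differences were therefore set against input.

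**Figure D5:**
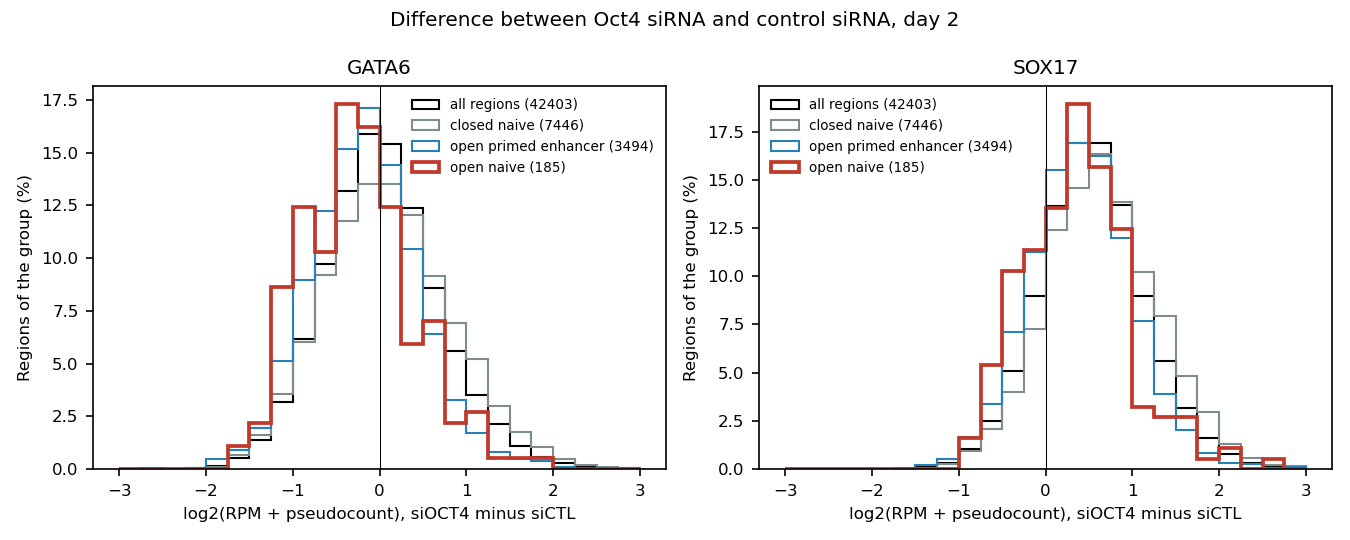
Distribution over regions (%, bins of the log2 difference) of siOCT4 minus siCTL at day 2 for GATA6 and SOX17, on the log2(RPM + pseudocount) scale, in all, closed naive, open primed enhancer and open naive regions. The open naive median is -0.28 for GATA6 and 0.37 for SOX17, against 0.00 and 0.52 over all regions.

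Known genes of either cell state had 1 open naive region in all. Within 50 kb of a transcription start, and with that gene as the nearest, 1 of the 185 regions (0.541%) lay near one of 22 pluripotency genes, the Zfp42 region described above, against 129 of all regions (0.304%). None lay near 11 primitive endoderm transcription factor genes, 12 basement membrane and matrix genes, 10 endocytosis and transport genes or 14 signalling genes of primitive endoderm, which had 70, 83, 41 and 78 regions in the whole table (0.165%, 0.196%, 0.0967% and 0.184%). Of 12 marker genes of other lineages and fibroblasts none had an open naive region, and 24 regions of the table (0.0566%) lay near them. At these shares less than 1 region would be found among 185, so the counts say nothing about the open naive regions in particular.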

How the data were processed

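The authors sequenced ChIP-seq libraries, aligned them to mm10 with Bowtie2 and quantified reads in each GATA6 binding region, scaled to library size. The submitters' processing notes also name bcl2fastq, cutadapt and SAMtools. The deposited values are RPM per region with replicates pooled. The authors also deposited the number of motifs per region and a score for the best motif of each factor. In 4 columns all values were whole multiples of 1 step (100% within 0.01 of a read), 36 columns had 2 steps, and in 5 no step could be resolved. The resolved columns gave 76 library depths from 5.42 to 69.4 Mreads (Mreads being 1e6 reads; median 15.3). No column had a region at 0, and whether the authors added a read to each region or left out empty regions is not known. Counting errors take the smallest value as 1 read of each library, by the steps or, where none was resolved, by the labels, and cover counting only. They hold for a single region at the stated value, not for a median over regions. With pooled values there are no replicates, so no count test or other test was run, and a call is a change past 2-fold (0.5 on the log2 scale for the siRNA).

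Changes were computed on log2(RPM + pseudocount), the pseudocount being the 5th percentile of each factor: 0.193 for GATA6, 0.192 for SOX17, 0.167 for OCT4, 0.195 for SOX2, 0.164 for ESRRB and 0.158 for input. The authors' GATA6 class came from k-means on these GATA6 values over input, while peak calls gave the classes for SOX17 and PTFs. Windows of 300 bases around the GATA6 summit were read from RefSeq GRCm38, where lower case marks repeats and low complexity, and compared with blastn (e-value 1e-10, at least 150 aligned bases). Position came from GENCODE M21, with UTR, exon and intron at the summit. The 4 leading regions of each part of a fixed rule were named, with a floor of 2 RPM under siCTL for the siRNA. The parts are the highest GATA6 at 8 h and at day 4, SOX17 at day 4 and OCT4 plus SOX2 at day 0, the largest OCT4 rise to day 2, the largest fall and rise of GATA6 after 8 h, and the largest GATA6 fall with the siRNA, besides regions nearest to a listed gene. The members and lists were chosen with earlier results of these data known. Not used were 14 columns of per-sample values (7 of ATAC-seq and 7 of histone marks) that the labels tie to no sample here, and a column holding the outcome of the authors' own siRNA comparison. Open and naive were therefore taken as the class columns give them. Scripts used Python 3.11.15, numpy 2.4.6, pandas 2.3.3, scipy 1.17.1, matplotlib 3.10.9 and BLAST+ 2.17.0, and were tested on simulated data.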

Additional observations from a re-analysis of the deposited data

How the results depend on the processing

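No paired analysis was possible because the deposited columns pool the replicates, and for the same reason no replicate could be left out in turn. Of 198 values recomputed under another setting, 130 stayed within the set range and 68 moved. A change of sign was labelled only for medians already past the call, and 0 of those changed sign. Smaller medians could not get this label, and those of SOX17 did change sign. From day 0 to day 4 the SOX17 median change was -0.14, but 0.35 without related windows, and the mean was 0.08. With siOCT4 it was 0.37, but -0.15 relative to the median change of all regions. With the pseudocount multiplied by 10, the share of open naive regions past the threshold was 35.1% for GATA6 lower from 8 h to day 4, 9.73% for SOX17 higher, 29.7% for OCT4 lower, 36.2% for SOX2 lower, 12.4% for ESRRB lower (each from day 0 to day 4) and 7.57% for GATA6 lower with siOCT4. The same shares of all regions were 14.5%, 19.2%, 7.09%, 9.52%, 7.64% and 6.69%, so a larger pseudocount lowers counts everywhere. With it divided by 10, ESRRB reached 57.3%. Relative to the median change of all regions SOX17 gave 13.5% and ESRRB 34.1%. In the 9 accessible members alone the shares were 77.8%, 11.1%, 100%, 100%, 100% and 44.4%. Left out after the data were seen, the related windows leave 112 regions with 55.4%, 36.6%, 46.4%, 50.9%, 39.3% and 24.1%, and 15.2% mostly masked windows. Counting any OCT:SOX motif gave 85.9% (all regions 71.5%), only the high class 13.5% (6.68%). Among the 95 regions whose highest GATA6 value reached the median of all regions, 48.4% held a high or mid OCT:SOX motif. Other alternatives chosen after seeing the data were subtracting the smallest value, leaving out chromosome X and masking over the whole region. Values near 1 read limit small changes in single regions.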
